A study of Rattus norvegicus with 320 samples.

Results

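The red cell miRNAs miR-451, miR-144 and miR-486 were 5 rows of the count table, 0.812% of its miRNAs, chosen by name, with or without an arm suffix: rno-miR-451-5p, rno-miR-451-3p, rno-miR-144-5p, rno-miR-144-3p and rno-miR-486, whose arm the table does not name (the prefix rno-, for rat, is left off from here on). Small RNA was sequenced from untreated male and female Fischer 344 rats killed at week 2, 6, 21 or 104 of life, in adrenal gland, brain, heart, kidney, liver, lung, skeletal muscle, spleen, thymus and either testis or uterus. Each organ, age and sex had 4 rats, so that an organ had 8 libraries per age, and testis (males) and uterus (females) had 4. Each rat gave 10 organs, so the organ groups share animals, but neither the labels nor the methods say that a replicate number marks the same rat in every organ. The libraries removed by the authors, a male brain of week 6 and a female spleen of week 104, were left out, which left 7 in each of those groups and took 2 from the 320 in all. Each library came from a ground whole organ with its blood and connective tissue, so more cells of a type and more of a miRNA per cell cannot be told apart.

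Red blood cell precursors transcribe miR-144 and miR-451 as a single primary RNA under the erythroid factor GATA1, and mature red cells, which have lost their nucleus, keep both. The miR-451 hairpin is too short for Dicer and is cut by Argonaute 2 instead, then trimmed into the mature 5p strand, which targets Ywhaz, the gene of the signalling adaptor 14-3-3 zeta. miR-144 targets Nrf2, a regulator of the antioxidant response. miR-486 lies in the gene for ankyrin-1, a protein of the red cell membrane skeleton that also has a muscle form, and it acts on Foxo1 in red cell precursors and in striated muscle. The rat spleen stores and clears red cells and makes them in young animals.

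The mature sequences are shown because each strand was counted by its own sequence, with the seed (bases 2 to 8, which pair with target messages) in capitals. No seed was shared with any other miRNA of the table, nor among these 5.
miR-451-5p: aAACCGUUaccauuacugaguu
miR-451-3p: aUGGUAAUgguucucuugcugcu
miR-144-5p: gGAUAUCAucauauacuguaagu
miR-144-3p: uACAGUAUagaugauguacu
miR-486: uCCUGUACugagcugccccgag
RefSeq places the first 4 on the plus strand of chromosome 10 of build GRCr8, with miR-144-5p at chr10:63459409-63459431, miR-144-3p at chr10:63459446-63459465, miR-451-5p at chr10:63459585-63459606 and miR-451-3p at chr10:63459612-63459634. The hairpins show how the strands lie, with the mature miR-144 strands and miR-451-5p in capitals.
Mir144: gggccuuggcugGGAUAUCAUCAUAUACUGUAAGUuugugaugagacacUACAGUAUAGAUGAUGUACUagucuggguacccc
Mir451a: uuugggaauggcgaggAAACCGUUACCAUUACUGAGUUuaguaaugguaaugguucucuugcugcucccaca
The Mir144 hairpin (83 bases, chr10:63459397-63459479) and the Mir451a hairpin (72 bases, chr10:63459569-63459640) were 89 bases apart. Within the hairpins, 14 bases lay between the mature strands of miR-144 and 5 between those of miR-451.

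Library totals ranged from 315550 to 10571766 counts (median 2856970), and liver had the shallowest libraries (median 1040990). Levels are given as CPM, the counts of a miRNA scaled to a common library total, as mean ± SD. Organ markers were highest in the organs of their labels: the summed level of 7 striated muscle miRNAs was between 52294 and 182275 CPM in heart and skeletal muscle, liver miR-122-5p and miR-192-5p together were at least 190509 CPM in liver, and neuronal miR-124-3p and miR-9a-5p at least 42878 CPM in brain. Outside these organs the sums reached 17424, 95213 and 779 CPM, in a lung, a kidney and an adrenal gland. The lung, male replicate 3 of week 21, also had 29360 CPM of the liver pair, against at most 2076 CPM in the other lungs of its age, and its miR-451-5p was the lowest of them at 645 CPM. Each library was compared with the rest of its organ and age by the correlation of log2(CPM + 1). The median was 0.993, the removed libraries had 0.876 and 0.923, and the lowest kept library, male adrenal gland replicate 1 of week 21, lay between them and the rest.

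Spleen held the most of 4 of the 5 strands at every age. Of all miR-451-5p counts in the series, 67.5% came from spleen, 14.0% from lung and 9.70% from heart. The shares in spleen were 58.0% for miR-144-3p, 54.5% for miR-144-5p and 48.5% for miR-451-3p, against 22.3% for miR-486, of which heart gave 29.0% and skeletal muscle 26.2%. Together the 5 strands made up 18.1 ± 4.56% of the counts of a spleen library at week 2 (n = 8) and 6.02 ± 1.46% at week 21, against 0.0349 ± 0.00713% in uterus at week 21 (n = 4).

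miR-451-5p in spleen ranged from 20466 to 41290 CPM at week 2 (median 25284, n = 8), from 6649 to 14633 at week 6 (median 11116), from 4140 to 17012 at week 21 (median 6636) and from 6515 to 32999 at week 104 (median 8811, n = 7). The lowest spleen library of any age, at 4140 CPM, lay above the highest library of any other organ, a heart of week 104 at 3015 CPM. Heart and lung followed. Heart means were 799 ± 180, 1745 ± 506, 1000 ± 250 and 1401 ± 704 CPM at weeks 2, 6, 21 and 104. Lung means were 1592 ± 715, 1276 ± 393, 817 ± 164 and 932 ± 296 CPM. Uterus was lowest at all 4 ages, with library values from 14.8 to 61.5 CPM (n = 16). The plot of levels by organ shows spleen on top for both strands of miR-144 too.

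**Figure D1:**
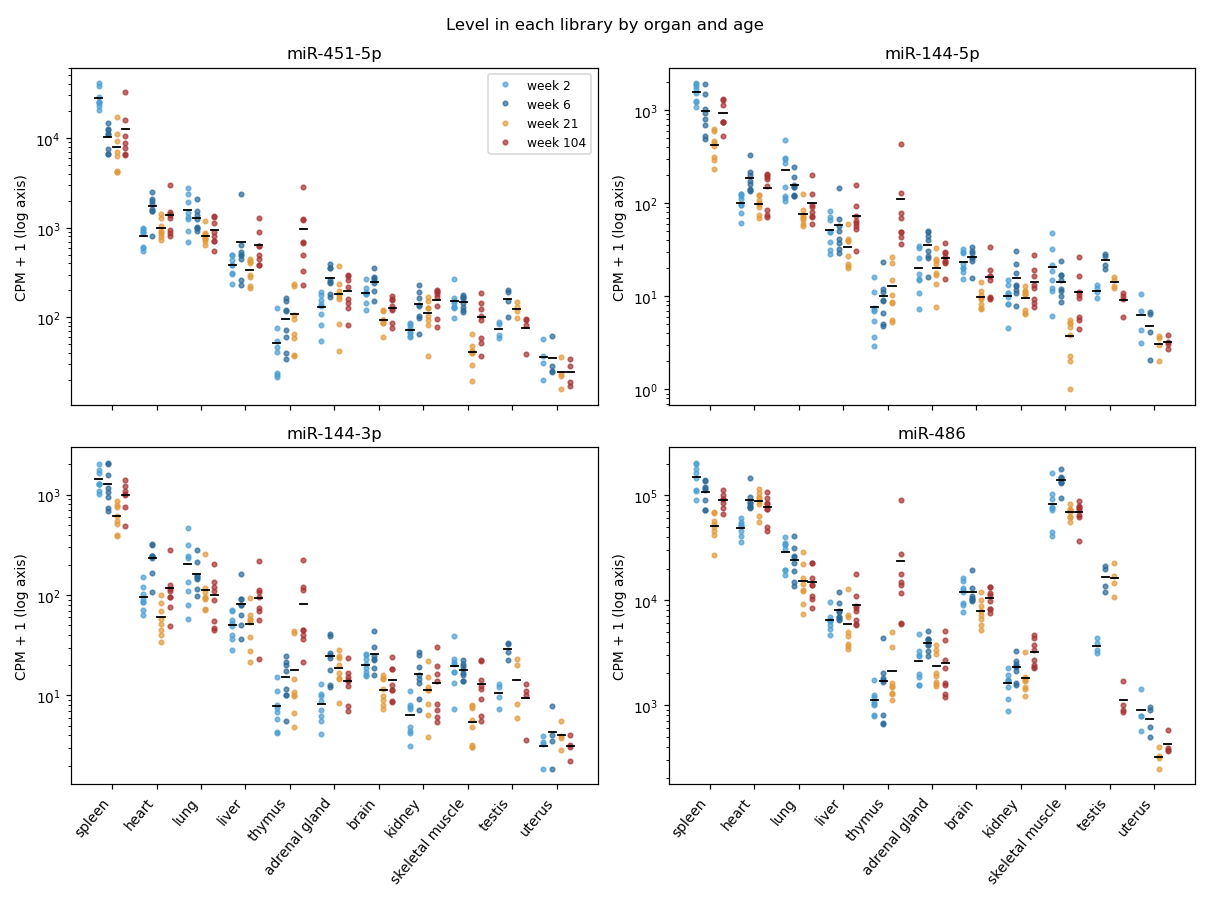
Level of miR-451-5p, miR-144-5p, miR-144-3p and miR-486 in CPM + 1 on a log axis, each point a library, grouped by organ and coloured by age, with black bars at group means. Spleen stands above the other organs for the first 3, whereas miR-486 in skeletal muscle and heart reaches the level of spleen.

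Spleen was compared with each of the other 10 organs at each age, which gave 40 comparisons per strand (edgeR quasi-likelihood test, TMM scaling, p-values adjusted by Benjamini-Hochberg over all miRNAs of the table in each comparison, called at an adjusted p under 0.05). Across the 5 strands 193 of 200 comparisons were higher in spleen and 4 lower, where 29.9% of all miRNA comparisons were called higher and 31.0% lower. For miR-451-5p the 40 comparisons were all called, with groups that did not overlap, and folds from 4.30 against heart at week 6 to 425 against uterus at week 2 (median 51.5). Folds ran from 3.83 to 337 for miR-144-3p and from 2.69 to 187 for miR-144-5p, again in 40 of 40 comparisons each. These counts did not change with any alternative in which they could be computed, including DESeq2, another scaling and the sequencing lane as a covariate.

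Below spleen the order changed with age. At week 2 lung exceeded heart in miR-451-5p (log2 difference 1.07 ± 0.24 SE, adjusted p = 9.62e-05) and heart exceeded liver (0.76 ± 0.24, adjusted p = 0.00364). At week 6 heart exceeded lung (0.72 ± 0.28, adjusted p = 0.0294), while at week 21 heart and lung were not separated (0.50 ± 0.28, adjusted p = 0.145). At week 104 the order was heart, thymus, lung and liver, and none of them was separated from the next (adjusted p from 0.266 to 0.661). These values cover neighbours in the order only, not pairs farther apart such as heart and liver. Among the lower organs, thymus against uterus and skeletal muscle against uterus were not separated at weeks 2 and 21 respectively (adjusted p = 0.112 and 0.224). The CPM order and the test could differ: brain was called below skeletal muscle at weeks 2 and 104 (-0.76 and -1.15) and testis below kidney at weeks 2 and 21 (-0.93 and -1.04), although the CPM mean of brain or testis was the higher.

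The other strand of the miR-451 hairpin was close to the counting floor. miR-451-3p had 1151 counts in all kept libraries, 0.0920% of all miR-451 counts (95% Wilson interval 0.0869 to 0.0975%, which covers counting error only). It was at 0 in 123 libraries, which allows up to 3 counts in each, and at no more than 3 counts in 230. The highest count was 34, and spleen held 558 of the counts. In spleen it was between 9.39 and 19.8 CPM at week 2 and between 2.59 and 9.67 CPM at week 21. The 3p share was 0.0661% in spleen (0.0608 to 0.0718%), 0.131% in heart (0.112 to 0.153%) and 0.154% in lung (0.137 to 0.173%), so that the spleen interval did not meet those of heart and lung. No fold of spleen over another organ is given for this strand because the groups compared with spleen were often at 0.

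The strands of miR-144 were counted in near equal numbers. The median count of miR-144-3p per count of miR-144-5p within a library lay between 0.591 in adrenal gland and 1.34 in skeletal muscle. In spleen miR-144-5p was 1556 ± 337 CPM at week 2, between 494 and 1898 CPM at week 6 (median 862), 423 ± 140 CPM at week 21 and 929 ± 315 CPM at week 104, and miR-144-3p was 1417 ± 349, 1285 ± 548, 607 ± 178 and 991 ± 296 CPM at the same ages. In uterus both were at a few CPM. The balance of the strands shifted with age in 5 of 11 organs (week 2 against week 21, two-sided exact permutation test on log2 of counts + 1, adjusted over 11 organs). From week 2 to week 21 the 3p strand gained on the 5p strand in adrenal gland (week 2 minus week 21 -1.22), kidney (-0.91), lung (-0.77) and spleen (-0.68), and lost on it in heart (0.69), with adjusted exact p from 0.0286 to 0.0472. This count was 3 without replicate 1 and 0 without each of the other replicates, when 6 libraries per group remained.

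By organ median, miR-144-3p had fewer counts than its hairpin neighbour miR-451-5p in all 11 organs. Group means of the log2 ratio at weeks 2 and 21 ran from -4.31 in spleen at week 2 to -2.66 in thymus at week 2. Organ medians ran from 7.06 counts of miR-451-5p per count of miR-144-3p in thymus to 13.8 in adrenal gland. Counts of different small RNAs in a library also reflect how well each ligates to the adapters, so only differences in this ratio between groups can be read. Week 2 and week 21 differed in adrenal gland (log2 difference -0.95, adjusted exact permutation p = 0.00171) and heart (1.04, adjusted exact permutation p = 0.00513), and in no other of the 11 organs was the difference called. The nearest was spleen (-0.73, adjusted exact permutation p = 0.0952).

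**Figure D2:**
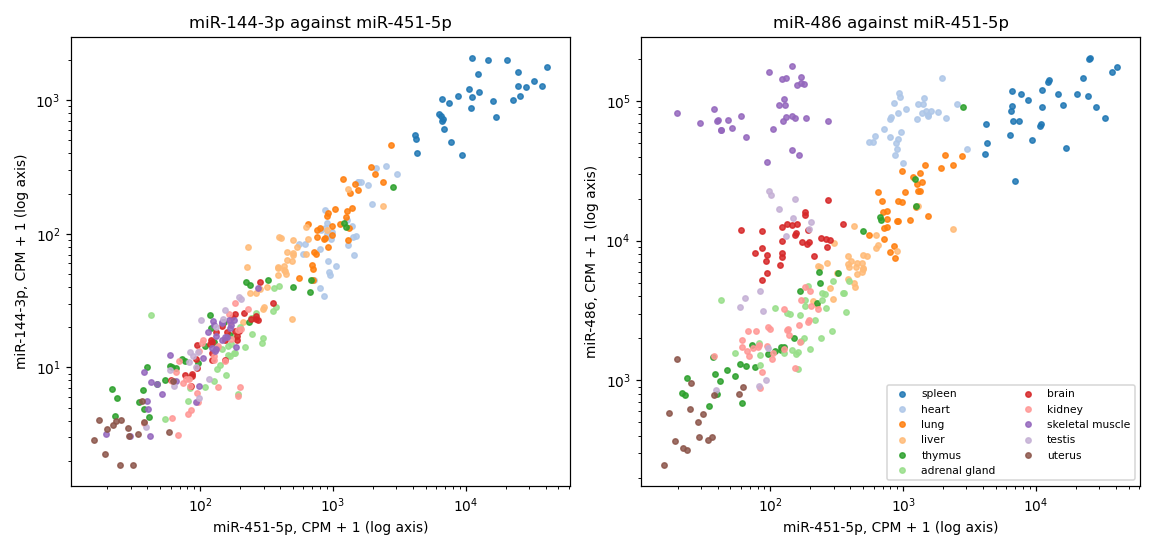
Level of miR-144-3p (left) and miR-486 (right) against miR-451-5p in all kept libraries coloured by organ, in CPM + 1 on log axes. The libraries form a single band on the left, and on the right skeletal muscle, heart, brain and part of the testis libraries lie above the line of the other organs.

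miR-486 was the most abundant of the 5 in every library and was also high outside spleen. In spleen it ranged from 90603 to 204394 CPM at week 2 (median 153604), and by mean level it was the first of all miRNAs there. Spleen medians were 115063, 51430 and 92101 CPM at weeks 6, 21 and 104. In skeletal muscle it ranged from 40813 to 161155 CPM at week 2 (median 75911), from 93540 to 176736 at week 6 (median 139052), from 54980 to 82663 at week 21 (median 70690) and from 36765 to 87501 at week 104 (median 73820). Heart medians were 50937, 82007, 90909 and 78322 CPM. The libraries of these 3 organs overlapped at every age, except that at week 2 the lowest spleen lay above the highest heart (59976 CPM).

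miR-486 was called higher in spleen in 33 of 40 comparisons (fold of 10.9 at the median difference over the 40 comparisons), and the other 7 were all with heart or skeletal muscle. It was lower in spleen than in skeletal muscle at week 6 (-0.70 ± 0.25, adjusted p = 0.00955), week 21 (-1.58 ± 0.30, adjusted p = 4.41e-06) and week 104 (-1.01 ± 0.37, adjusted p = 0.0151), and lower than in heart at week 21 (-1.44 ± 0.30, adjusted p = 2.53e-05). The difference from skeletal muscle depended on scaling: with library size alone spleen minus muscle was not called at weeks 6 and 21 (adjusted p = 0.136 and 0.142), and at week 104 spleen was higher by 0.36 (adjusted p = 0.339). The difference from heart at week 21 was still called. Skeletal muscle was higher than another organ in miR-486 in 36 of 40 comparisons (29.4% of all miRNA comparisons were higher in muscle) and heart in 33 of 40 (27.3%), and muscle was lower in none. For miR-451-5p, skeletal muscle was higher in 8 and lower in 21, heart higher in 32, and lung higher in 31 (29.3%). The summed striated muscle markers were between 65.7 and 403 CPM in spleen.

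The ratio of miR-486 to miR-451-5p within a library separated skeletal muscle from every other organ. Its median was 835 counts of miR-486 per count of miR-451-5p in skeletal muscle, 71.0 in brain, 64.7 in heart, 61.4 in testis, between 14.1 and 20.7 in thymus, kidney, lung, uterus, liver and adrenal gland, and 8.01 in spleen. The lowest of the 32 muscle libraries (249) lay above the highest of the other 286 (233, a testis of week 21). Muscle was higher in 40 of 40 comparisons by age (two-sided exact permutation test on log2 counts + 1; with 8 libraries against 8 each adjusted p was 0.000257, from the smallest p the permutations can give, 0.0001554). Heart was higher in 29 of the 36 comparisons with organs other than muscle. With replicate number as a block the muscle calls were 32 of 40 and the heart calls 24 of 36. The comparisons with testis and uterus then had 4 pairs and a smallest p of 0.125, and without them 32 of 32 muscle and 24 of 28 heart comparisons were called. In the fit without the block, heart was not separated from brain at any age (adjusted exact permutation p from 0.141 to 0.926) or from testis at weeks 2 and 21, and it was lower than testis at week 6 (-0.97, adjusted exact permutation p = 0.0439).

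Within skeletal muscle the ratio was not constant, with geometric means of 525, 928, 1767 and 766 at weeks 2, 6, 21 and 104. Brain lay near heart in this ratio without muscle markers at a like level: the striated muscle sum in brain was at most 898 CPM. A male adrenal gland library of week 21 had a ratio of 90.5, against at most 30.5 in the other adrenal gland libraries and a median of 10.6 in its own group. It was the kept library least like its group, its miR-451-5p was the lowest of the organ at 41.3 CPM, and its muscle marker sum was 157 CPM, near the median of its group (159.7 CPM).

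**Figure D3:**
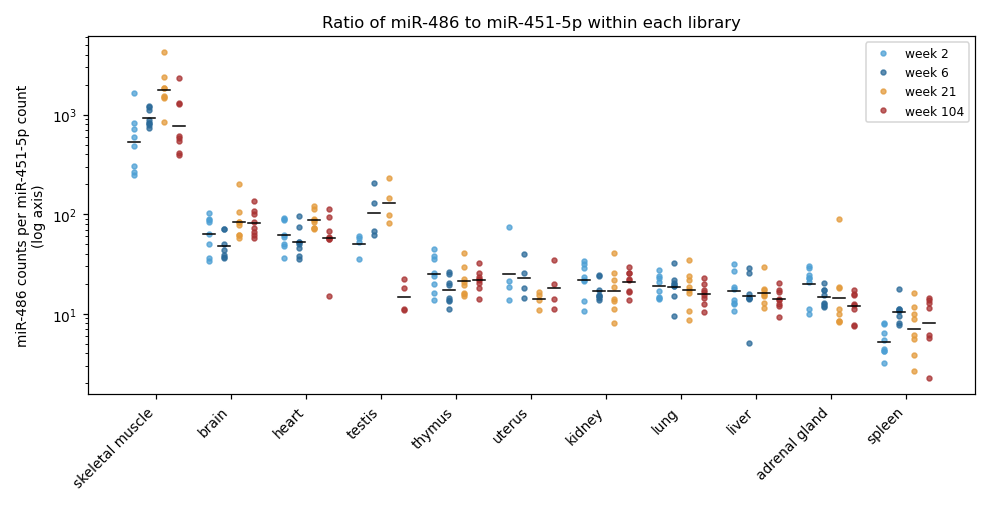
Counts of miR-486 per count of miR-451-5p in each library on a log axis, by organ and age, with bars at geometric means. The muscle libraries lie between 249 and 4195 and all others between 2.29 and 233, and testis drops at week 104.

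Across ages, most called changes were rises between weeks 2 and 6, falls between weeks 6 and 21, and rises again by week 104. Over 5 strands and 11 organs, 21 of 55 steps from week 2 to week 6 were called higher and 1 lower, where 15.4% of all miRNA steps were higher and 20.6% lower. From week 6 to week 21, 0 were higher and 16 lower (7.39% and 8.94% of all), with 0 higher and 22 lower at an unadjusted p under 0.05 by edgeR and 0 higher by DESeq2, and with library size alone 0 higher and 23 lower. From week 21 to week 104, 16 were higher and 1 lower (7.38% and 8.66%), and the count of higher steps was 8 to 12 when 1 replicate number was left out. Over all ages together 55 steps were called. Of these, 43 were called in the same direction with sequencing lane as a covariate, and 40 to 47 with 1 replicate number left out.

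**Figure D4:**
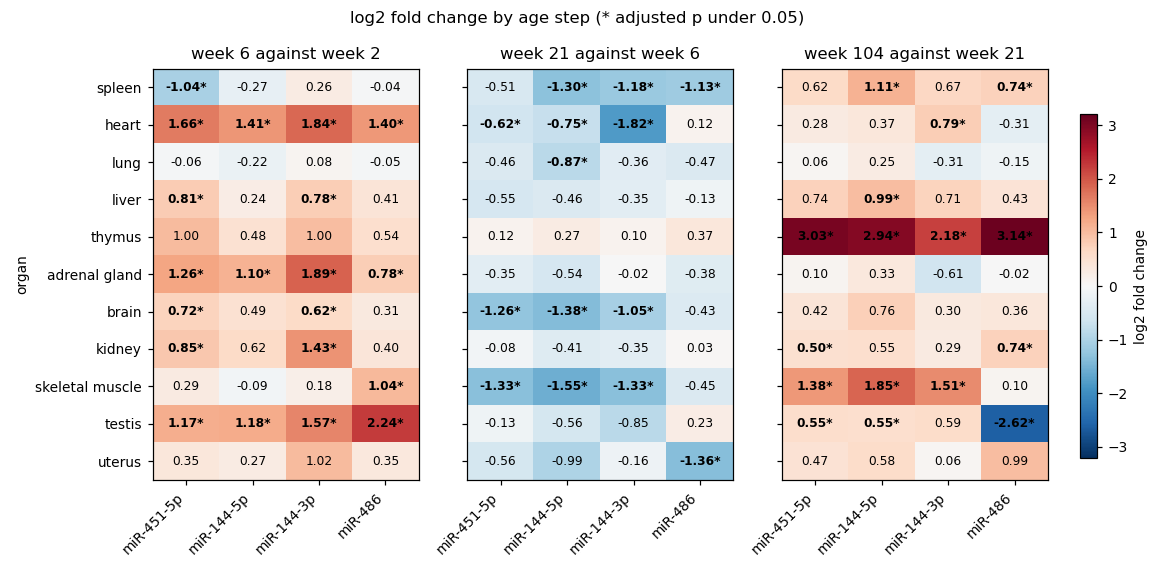
Log2 change of 4 strands between successive ages in 11 organs (edgeR), red for a rise and blue for a fall, with an asterisk at an adjusted p under 0.05. Rises at week 6 in heart, adrenal gland and testis, falls at week 21 in heart, brain, muscle and spleen, and the rise in thymus at week 104 carry most asterisks.

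The 1 called fall at week 6 was in spleen, where miR-451-5p fell from 28241 ± 7397 to 10336 ± 3011 CPM (log2 change -1.04 ± 0.26 SE, adjusted p = 0.00239, n = 8 and 8), and the groups did not overlap. The other 4 strands were not called there under TMM scaling. With library size alone miR-144-5p (-0.67, adjusted p = 0.00906) and miR-486 (-0.44, adjusted p = 0.0414) fell too, while the median of all miRNAs moved by -0.52. Per the study's methods, RNA of the youngest spleens was of lower integrity than that of the other samples, and the part of this in the step was not tested. From week 6 to week 21 the other 4 fell in spleen: miR-144-5p by -1.30 ± 0.21 (adjusted p = 6.31e-05), miR-144-3p by -1.18 ± 0.21 (adjusted p = 0.000259), miR-486 by -1.13 ± 0.21 (adjusted p = 0.000443) and miR-451-3p by -1.01 ± 0.29 (adjusted p = 0.0198). miR-486 did not overlap between those ages. At week 104 miR-144-5p rose again by 1.11 ± 0.21 (adjusted p = 0.00113) and miR-486 by 0.74 ± 0.22 (adjusted p = 0.0376), and the miR-486 call was lost when replicate 1, 2 or 4 was left out.

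Heart showed both the rise and the fall, though not every strand fell. From week 2 to week 6 miR-451-5p rose by 1.66 ± 0.19 (adjusted p = 6.69e-09), miR-144-3p by 1.84 ± 0.20 (adjusted p = 3.70e-09), miR-144-5p by 1.41 ± 0.18 (adjusted p = 4.16e-08) and miR-486 by 1.40 ± 0.21 (adjusted p = 1.26e-06). miR-486 and miR-144-5p did not overlap between the 2 ages, and the other 2 did. By week 21 miR-144-3p fell by -1.82 ± 0.21 (adjusted p = 2.48e-08) to 59.1 ± 22.5 CPM, miR-144-5p by -0.75 ± 0.17 (adjusted p = 0.00116) and miR-451-5p by -0.62 ± 0.19 (adjusted p = 0.0123). The miR-451-5p fall was not called without replicate 2 or without replicate 4. Heart miR-486 did not fall in this step (0.12 ± 0.20, adjusted p = 0.733), with means of 90198 and 87158 CPM. Heart miR-451-3p was not called in it either (-0.41, adjusted p = 0.526). Leukocyte markers moved with the rise at week 6: 5 of 5 leukocyte miRNAs were called higher in heart (4 with library size alone), where 20.5% of all miRNAs were, and the leukocyte sum went from between 1187 and 2181 CPM to between 2621 and 3608 CPM. The 2 endothelial miRNAs were called higher under TMM scaling and not with library size alone, and their summed median went from 39703 to 34273 CPM. Of 13 other miRNAs reported in red cells, 0 were higher and 6 lower in heart with library size alone. No share of all miRNAs is given under that scaling, so these counts cannot be read as particular to the 13. The median of all miRNAs moved by -0.42 under that scaling. The summed median of the 13 went from 54212 to 42528 CPM. The part of these markers in the result was not tested.

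Adrenal gland and testis rose over the same step. In adrenal gland miR-451-5p went from between 53.0 and 191 CPM (median 137) to between 168 and 392 CPM (median 254), a log2 change of 1.26 ± 0.25 (adjusted p = 0.000131), and miR-144-3p rose by 1.89 ± 0.27 (adjusted p = 1.14e-06). There 4 of 5 leukocyte miRNAs were higher too (15.1% of all miRNAs). Of the 13 other red cell miRNAs, 4 were higher and 2 lower in adrenal gland with library size alone. Their summed median there went from 44278 to 34935 CPM. The median of all miRNAs in adrenal gland moved by -0.24 under that scaling. No share of all miRNAs is given under it, so these counts cannot be read as particular to the 13. In testis the 4 libraries of week 2 had 58.1, 62.9, 83.1 and 86.9 CPM of miR-451-5p and those of week 6 had 101, 152, 193 and 201 CPM (1.17 ± 0.21, adjusted p = 0.00022). Testis miR-486 rose most, from 3676 ± 561 to 16690 ± 4557 CPM (2.24 ± 0.32, adjusted p = 3.07e-05), with 1 of 5 leukocyte miRNAs and 5 of 7 striated muscle miRNAs higher (18.5% of all miRNAs). The testis groups did not overlap for either strand. Per the study, piRNA dominated the testis libraries of week 6 and not those of week 2, and the part of this in the testis step was not tested. Kidney and brain miR-451-5p also rose, by 0.85 ± 0.17 (adjusted p = 0.000115) and 0.72 ± 0.17 (adjusted p = 0.000902). The rise in liver (0.81 ± 0.27, adjusted p = 0.0185) was 0.32 (adjusted p = 0.336) without male liver replicate 2, which had 2379 CPM against a group median of 496.

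Brain and skeletal muscle fell by week 21. In brain miR-451-5p fell from 250 ± 64.0 CPM (n = 7) to 93.2 ± 19.2 CPM (n = 8), a change of -1.26 ± 0.17 (adjusted p = 1.06e-05), with no overlap between groups, and miR-144-5p fell by -1.38 ± 0.24 (adjusted p = 0.00016). With sequencing lane as a covariate the brain falls kept their direction but were not called (adjusted p = 0.200 for both), and the brain steps at week 6 were not called either. Per the study's metadata, the kept brain libraries of weeks 6 and 21 shared no sequencing lane. Age and lane therefore cannot be told apart in the brain step between these ages. In skeletal muscle miR-451-5p fell from 148 ± 24.1 CPM to between 18.6 and 64.8 CPM (-1.33 ± 0.25, adjusted p = 4.30e-05), miR-144-5p by -1.55 ± 0.40 and miR-144-3p by -1.33 ± 0.33 (adjusted p = 0.00166 and 0.00117), with no overlap for any of the 3. They then rose at week 104 by 1.38 ± 0.25, 1.85 ± 0.40 and 1.51 ± 0.33 (adjusted p = 0.000163, 0.000922 and 0.00117). Muscle miR-486 did not follow: it rose at week 6 (1.04 ± 0.22, adjusted p = 0.000165), when 5 of 7 striated muscle miRNAs rose (19.5% of all miRNAs), among them miR-1-3p by 1.01 ± 0.20, and was not called at the later steps under TMM scaling. With library size alone, miR-486 in muscle did fall from week 6 to week 21, by -1.01 (adjusted p = 6.24e-06), while the median of all miRNAs moved by -0.68. Its CPM mean went from 138285 to 68586 with no overlap between the ages.

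Thymus had the largest late rise of the red cell strands. At week 21 miR-451-5p ranged from 35.9 to 238 CPM (median 80.0) and at week 104 from 231 to 2817 CPM (median 677), a change of 3.03 ± 0.43 (adjusted p = 3.83e-07). The 8 libraries of week 104 had 231, 325, 497, 669, 685, 1221, 1253 and 2817 CPM, and only the lowest reached into the week 21 range. miR-486 rose from between 1108 and 4999 CPM to between 5874 and 90446 CPM with no overlap (3.14 ± 0.43, adjusted p = 1.94e-07), and miR-144-5p by 2.94 ± 0.42 (adjusted p = 4.99e-07). Male replicate 3 was highest in all of them, and without replicate 3 the changes were 2.63 for miR-451-5p and 2.79 for miR-486. miR-451-3p had 4 counts at week 21 and 24 at week 104 over all thymus libraries, too few for a fold.

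Other markers in thymus moved apart from these. Of 13 other miRNAs reported in red cells, 1 rose and 8 fell (4 and 8 with library size alone, 19.6% and 21.6% of all miRNAs under TMM scaling), with a median log2 change of -1.19 against 0.10 for all miRNAs. miR-93-5p and miR-363-3p, made by clusters active in dividing cells, fell by -1.73 and -1.95, and miR-107-3p rose by 0.75. Of 5 leukocyte miRNAs 3 fell and 0 rose (2 and 1 with library size alone), miR-142-3p by -2.58, and the leukocyte sum went from between 31708 and 50497 CPM to between 11709 and 29862 CPM. Both endothelial miRNAs rose, miR-126a-3p by 1.16 and miR-126a-5p by 0.80, and their sum went from between 4295 and 16325 CPM to between 9242 and 29035 CPM. The part of these changes in organ makeup in the rise of miR-451 and miR-486 was not tested.

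Testis at week 104 parted miR-486 from the others. The 4 libraries had 10829, 14601, 16877 and 22725 CPM of miR-486 at week 21 and 855, 905, 999 and 1709 CPM at week 104, a change of -2.62 ± 0.32 (adjusted p = 1.82e-06), which was -3.86 with library size alone. The ratio to miR-451-5p went from a geometric mean of 129 to 14.9. miR-451-5p went from 123 ± 21.5 to 76.2 ± 26.3 CPM. TMM scaling called it higher (0.55 ± 0.20, adjusted p = 0.0299), and library size alone gave -0.69 (adjusted p = 0.0633), since the median of all miRNAs moved by -1.13 under that scaling. The direction of miR-451-5p and of miR-144-5p (0.55 against -0.71) in this step therefore depended on the scaling. Per the study, piRNA dominated the testis libraries of week 21 and not those of week 104. The part of this in the step was not tested. The striated muscle sum in testis went from between 396 and 604 CPM to between 42.0 and 107 CPM, and 4 of 5 leukocyte miRNAs were called higher under TMM scaling (25.8% of all miRNAs) and 0 with library size alone. Their summed median went from 1502 to 1060 CPM, so the direction of the leukocyte markers depended on the scaling too. Of the 13 other miRNAs reported in red cells, 0 were higher and 11 lower in this step with library size alone. Their summed median went from 79262 to 34503 CPM. No share of all miRNAs is given under that scaling, so these counts cannot be read as particular to the 13.

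**Figure D5:**
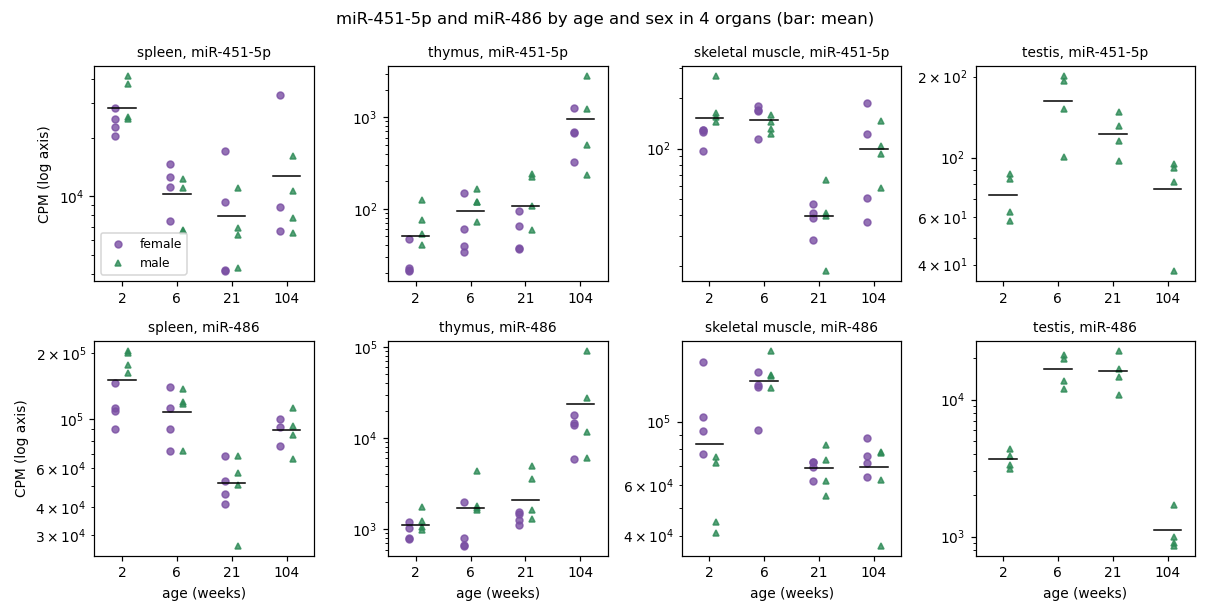
Level of miR-451-5p and miR-486 in CPM on a log axis in spleen, thymus, skeletal muscle and testis, each point a library by age and sex, with bars at group means. Thymus rises at week 104, and in testis miR-486 falls below every library of weeks 2 to 21, while the miR-451-5p libraries lie between 37.8 and 201 CPM over the 4 ages.

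The step of each organ was then tested against that of spleen, in 50 tests per step (10 organs, 5 strands). At week 6, 23 organ steps were higher than that of spleen and 0 lower, where 12.4% and 7.65% of all miRNAs were. For miR-451-5p this held in 9 of 10 organs, lung being the exception, with differences from 1.42 in uterus and skeletal muscle to 2.55 ± 0.42 in adrenal gland. The 23 tests share the spleen groups, those of week 2 with RNA of lower integrity, and the spleen step itself was a called fall for miR-451-5p and not for the other 4 strands. At week 21, 3 were higher and 0 lower (2.99% and 2.78% of all), the 3 in thymus: miR-144-5p by 1.66, miR-144-3p by 1.52 and miR-486 (adjusted p = 0.0122). At week 104, 4 were higher and 1 lower (4.58% and 6.8% of all), the 4 again in thymus: miR-486 by 2.49, miR-451-5p by 2.32, miR-144-5p by 1.93 and miR-144-3p by 1.29 (adjusted p from 4.50e-07 to 0.0226). Without replicate 3 the last pair was not called (adjusted p = 0.0715 and 0.127). The lower one was testis miR-486, by -3.45 ± 0.54 (adjusted p = 7.85e-09).

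Males and females differed in few comparisons. Over all ages, 4 of 45 comparisons (9 organs, 5 strands) were called, all higher in males, against 1.39% of all miRNA comparisons. In thymus these were miR-144-5p by 1.18 ± 0.31, miR-451-5p by 1.08 ± 0.29 and miR-486 by 1.04 ± 0.28 (adjusted p from 0.0323 to 0.0336, n = 16 and 16). Thymus miR-451-5p averaged 385 CPM in males and 222 CPM in females, and the groups overlapped. The fourth was adrenal gland miR-486 (0.62 ± 0.19, adjusted p just under the threshold), which was 0.48 (adjusted p = 0.0901) without male replicate 1 of week 21. No call of these 4 remained with sequencing lane as a covariate or with replicate number as a block. At single ages 5 of 180 were called (1.32% of all): lung miR-144-3p (1.64) and miR-144-5p (1.39) at week 2, liver and adrenal gland miR-486 at week 21, and miR-486 in skeletal muscle at week 2, which was lower in males (-1.04). None of the 5 was called with lane as a covariate. Of 45 tests of whether the sex difference depended on age, 1 was called, liver miR-486 (adjusted p = 0.0367 by edgeR, where 1.42% of all were called). This is near the share of all, so it cannot be read as particular to miR-486.

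Within organs, the levels of the strands in rats of the same age and sex were compared. The deviations of log2(CPM + 1) from the mean of each organ, age and sex were correlated for 6 pairs of strands in 11 organs, 66 correlations in all, of which 45 were called by permutation test (38 for Spearman's rho). No share over other pairs of miRNAs is given beside these counts, so they cannot be read as particular to these strands. miR-451-5p and miR-144-3p were called in 11 of 11 organs, with r between 0.54 in spleen and 0.91 in thymus. When the 2 libraries farthest from the median were left out r stayed at or above 0.36, the lowest being uterus. miR-451-5p and miR-144-5p were called in 9 of 11, with r of 0.28 in spleen and 0.04 in uterus, the organs not called. miR-144-5p and miR-486 were called in 6 of 11, among them spleen (r = 0.60), and miR-144-3p and miR-486 in 5. miR-451-5p and miR-486 were called in 4 of 11. In thymus r was 0.90 (rho 0.85, adjusted permutation p = 4.71e-05, n = 32; 0.85 without the 2 farthest), in liver 0.52, in lung 0.50 and in adrenal gland 0.43. In skeletal muscle, heart, spleen and brain r was -0.09, 0.09, -0.00 and 0.04, none of them called.

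Across the 44 means of organ and age, which share libraries and scaling, the pattern of miR-451-5p was followed by miR-144-5p with r = 0.993, by miR-144-3p with r = 0.986 and by miR-486 with r = 0.711. Outside the group, the most alike was miR-3590-3p for miR-451-5p (r = 0.828), miR-144-3p (r = 0.817) and miR-144-5p (r = 0.802). For miR-486 the 3 most alike were miR-30b-5p (r = 0.700), miR-30d-5p (r = 0.671) and miR-22-5p (r = 0.662). This ranking depended on the measure: of the 12 named, 4 were among the 3 most alike by Spearman's correlation and 7 with log2(CPM + 10).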

How the data were processed

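The deposited table holds raw read counts per miRNA. Per the submitters' notes and the study's methods, the authors trimmed reads with fastp 0.23.2, aligned them to miRBase with Bowtie 1.3.1 (build rn7), and left out miRNAs with a very low average count; no spike-in was used. CPM were computed from the column totals over all miRNAs of the table. Tests used edgeR 4.0.16 (TMM, quasi-likelihood, R 4.3.3) on all of them, with Benjamini-Hochberg adjustment within each comparison and all libraries of the organs compared; the fit was checked on simulated data. Ratios were tested by exact permutation and correlations with 100000 permutations (SciPy 1.17.1). Alternatives were DESeq2 1.42.0, library size as the only scaling, a mean count of at least 10, all 320 libraries, sequencing lane as a covariate, a replicate block, and each replicate left out. Counts are independent reads only as far as amplification allows, so intervals and floors cover counting error only. Members, marker lists and tests were chosen with earlier results of these data known. Besides the members, the text names the 3 miRNAs most alike in pattern to each abundant member and at most 4 called list members per comparison. miR-451-3p was added to the 4 abundant members because the naming rule finds it. Mature and hairpin sequences come from RefSeq (GRCr8), which matched 4 of the 5; the miR-486 sequence is that of the deposited table.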

Additional observations from a re-analysis of the deposited data

Results flagged for a closer look

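In groups of 4 to 10 libraries, the highest or lowest library stood far from the others in 11 of 176 groups of organ, age and strand, where chance gives about 1 in 20 groups. For miR-451-5p these were 806 CPM (low) in female heart replicate 1 of week 6, 3015 CPM (high) in male heart replicate 3 of week 104, 36.4 CPM (low) in female kidney replicate 1 of week 21, 2379 CPM (high) in male liver replicate 2 of week 6 and 61.5 CPM (high) in uterus replicate 4 of week 6. For miR-144-3p it was 255 CPM (high) in male lung replicate 2 of week 21. For miR-486 these were 146256 CPM (high) in male heart replicate 1 of week 6, 3236 CPM (high) in male kidney replicate 1 of week 21, 93540 CPM (low) in female skeletal muscle replicate 1 of week 6, 36765 CPM (low) in male skeletal muscle replicate 3 of week 104 and 577 CPM (high) in uterus replicate 1 of week 104.

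The change of miR-451-5p from week 2 to week 6 went opposite ways in spleen, where it fell, and in 6 organs where it rose. On the log2 scale the difference between the changes was 2.55 for adrenal gland, 2.54 for heart, 2.42 for testis, 2.21 for liver, 2.10 for kidney and 1.87 for brain (tested as a difference of changes by edgeR). These differences share the spleen step, whose week 2 RNA was of lower integrity. The rise in liver was not called without male replicate 2, and that in brain was not called with sequencing lane as a covariate. For miR-486 at week 104, testis fell and spleen rose, a difference of -3.45. The dependence of the sex difference on age was called for liver miR-486 (adjusted p = 0.0367 by edgeR), a count near the 1.42% called over all miRNAs.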

How the results depend on the processing

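Of the 197 called differences from spleen, 194 were called in the same direction with library size only, and 195 to 197 with each other setting that kept all 5 strands. A mean count of at least 10 left out miR-451-3p, and 157 of the 157 others were called in the same direction. miR-486 in spleen against thymus at week 104 was not called without replicate 2 or 4. With library size only, comparisons lower in spleen were 1 instead of 4, skeletal muscle minus spleen in miR-486 at week 104 turned to -0.36, and the testis changes to week 104 turned to -0.69 for miR-451-5p and -0.71 for miR-144-5p. Under that scaling steps called lower were 3 at week 6 and 2 at week 104, and steps below that of spleen were 1 at week 21 and 4 at week 104. DESeq2 called 2 lower at week 104. All 320 libraries gave 2 steps below that of spleen at week 104. With lane as a covariate there were 6 steps above that of spleen at week 21, 3 below it at week 104, and 0 sex calls over ages.

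Leaving out 1 replicate number gave 1 to 2 lower steps at week 6, 8 to 12 higher steps at week 104, 0 to 4 sex calls over ages, 13 to 23 steps above that of spleen at week 6, 0 to 4 at week 21 and 2 to 5 at week 104. It gave 0 to 3 organs for the ratio of the miR-144 strands and 1 to 2 for miR-144-3p to miR-451-5p. Of the 12 miRNAs most alike in pattern, Spearman's correlation kept 4 and log2(CPM + 10) kept 7.

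Each rat gave 10 organs, but the sources do not tie replicate numbers to rats. Over all miRNAs, the mean correlation of deviations in same-numbered libraries was over 0.1 in 0 of 54 organ pairs. Its median was 0.00452, against -0.00123 for libraries with other numbers. For single strands r was over 0.1 in 25 to 34 of 54, but each is a single r over 15 to 32 libraries. These counts cannot be set against that of all miRNAs, and the check leaves the pairing of organs undecided. With the replicate block, 13 instead of 16 steps were higher at week 104, sex calls over ages were 0 instead of 4, and the ratio of miR-486 to miR-451-5p was called higher in 32 of 40 comparisons in muscle and 24 of 36 in heart.

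Leaving out male thymus replicate 1 of week 104, male liver replicate 2 of week 6, female spleen replicate 3 of week 104 or male adrenal gland replicate 1 of week 21, chosen after seeing the data, changed no age call other than those of liver, and ended both adrenal sex calls. Liver libraries and miR-451-3p are limited by depth.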

Other observations

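The libraries that the authors removed held 593 CPM of miR-451-5p and 12710 CPM of miR-486 (male brain replicate 3 of week 6) and 4869 and 42673 CPM (female spleen replicate 4 of week 104). The brain library lay above the highest kept brain library of its age in miR-451-5p (352 CPM), and the spleen library lay below the lowest kept spleen of its age in both (6515 and 66131 CPM).

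Across organs, deviations of the red cell strands in libraries with the same replicate number, age and sex had median correlations over 54 organ pairs of 0.158 for miR-144-5p, 0.0911 for miR-144-3p, 0.0833 for miR-486 and 0.0649 for miR-451-5p. The value of 0.00452 over all miRNAs comes from means of r over library pairs and is not a like measure. No value for libraries with other numbers is given for the strands. The range for miR-451-5p was -0.646 to 0.531.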
